A study of Bos taurus and Bos indicus with 3 samples.

Results

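The gene models described here are transcribed regions of the cattle genome that carried no gene name in the deposited table. They were chosen by their values: a model was taken if its name field was empty, if it did not lie on the mitochondrial genome, and if its expression was above 0 in each of the 3 libraries. These criteria were met by 1709 of the 25968 models, or 6.58%. They were 1709 of the 5730 unnamed nuclear models. Of the remaining unnamed models, 607 were above 0 in 2 libraries, 1415 were above 0 in 1 library and 1999 were at 0 in all of them. Because detection in every library is the selection itself, it is given as a description and was not tested.

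The libraries were mRNA-Seq libraries of white blood cells from 2 taurine breeds, Holstein and Jersey, and 1 indicine breed, Cholistani. The Holstein pool came from 40 cows and the Jersey pool from 7 cows, housed at different university sites in Wisconsin. The Cholistani pool came from 45 cows on a farm in Pakistan. Blood was pooled in equal volumes before the cells were isolated, so each library is 1 pool and cannot show how animals differ. All 3 pools were lysed for red cells and selected for polyadenylated RNA. Only the Cholistani RNA was shipped in a dry storage matrix. Breed, country, farm and RNA storage thus cannot be told apart in any difference of that library. Between Jersey and Holstein, breed and farm cannot be told apart either. The cows' ages were not given in the sources used here. The question of the study was how sequence and expression differ among the breeds.

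Expression is given as the authors' estimates in FPKM, a count of sequenced fragments scaled by exon length and by library size. Over all models, these estimates add up to 5949765 for Holstein, 6288105 for Jersey and 9525773 for Cholistani. The fragments behind each model's value are unknown, so no counting interval was computed. With 1 library per breed there is no replicate error either, and no test was made. Of 10 leukocyte markers listed, 6 were found by name and all were above 0 in every library, among them CD3E of T cells with 2041, 2127 and 6016 FPKM in Holstein, Jersey and Cholistani. The 3 red cell markers found summed to 536, 375 and 102 FPKM, of which ALAS2 had 536, 363 and 32.4, HBA 0, 11.5 and 69.3, and AHSP 0 throughout. The 2 platelet markers summed to 905, 1043 and 811 FPKM, with 821, 939 and 621 for PPBP and 84.5, 104 and 190.0 for GP9. The 3 epithelial markers summed to 6.64, 10.9 and 17.3 FPKM, with KRT5 at 0 in all libraries. Their part in the values of the unnamed models was not tested.

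An assembler such as Cufflinks builds a transcript wherever aligned fragments overlap, whether or not an annotated gene lies there. Polyadenylated transcripts outside annotated genes are of several known kinds. Long noncoding RNAs are spliced and polyadenylated but code for no protein, and many are specific to a cell type. Unannotated extensions of a 3′ untranslated region can appear as separate models just beyond a gene's listed end. Processed pseudogenes are copies of mature mRNAs inserted elsewhere in the genome, and fragments of an abundant parent gene can align to them. In white blood cells, genes for antigen receptors also lie in large repetitive families that a draft genome holds incompletely. The table does not say to which of these kinds a model belongs.

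The unnamed models were less often shared by the libraries than the named ones. Of 3731 unnamed models above 0 in any library, 45.8% were above 0 in all 3, against 90.8% of 11543 named models. Models named as small noncoding RNAs, of which 66 of 146 were found in every library, had a share of 45.2%. Among the 607 unnamed models missing from 1 library, 356 were shared by Holstein and Jersey, 177 by Jersey and Cholistani and 74 by Holstein and Cholistani. The taurine pair thus held more of them than either pair with Cholistani.

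Among the 12192 models of any kind found in all 3 libraries, the members were 14%. Their share by chromosome ran from 9.77% on chromosome 27 and 9.89% on chromosome 25 to 19.8% on chromosome 4 and 20.3% on the X chromosome. Chromosome 18 held the most, 125 members, which were 17.3% of its models found in every library.

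The members were expressed at lower levels than named genes, with a long upper tail. Their median was 42.8 FPKM in the Holstein, 42.6 in the Jersey and 44.1 in the Cholistani library. The named models found in all 3 libraries had medians of 119, 120.3 and 131 FPKM. FPKM is per length of exon, but the members had shorter listed spans than the named models and their level varied with span. A listed span includes introns, so exon lengths were not compared. The middle 50% of the members lay between 20.8 and 129 FPKM in Holstein, between 21.5 and 133 in Jersey and between 18.2 and 159 in Cholistani. Unnamed models of 2 libraries had medians of 16.9, 15.8 and 23.3 FPKM where they were above 0, and those of 1 library had medians of 16.8, 15.7 and 17.3 FPKM.

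At the upper end, 97 members reached 1000 FPKM in the Holstein, 101 in the Jersey and 129 in the Cholistani library. At least 10000 FPKM was reached by 18, 20 and 27 members. Together the members made up 12.3% of all FPKM in the Holstein, 12.6% in the Jersey and 14.5% in the Cholistani library. Of the members' own sum, the 10 most abundant in each library held 29.6%, 27.9% and 38.1%, so that a small number of models carried much of the unnamed signal.

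The most abundant member by its mean was XLOC_012010, a region of 394 bp at chr10:69119503-69119896 of the btau4.0 assembly. It had 60862 FPKM in the Holstein, 47166 in the Jersey and 80850 in the Cholistani library. The nearest named model, GCH1, starts 4277 bp from it. GCH1 is GTP cyclohydrolase 1, the first enzyme of tetrahydrobiopterin synthesis. It had 71.9, 65.5 and 110.01 FPKM, so the 2 neighbouring models were of very different abundance in every library.

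The highest single value belonged to XLOC_024863, with 29026 FPKM in the Holstein, 30532 in the Jersey and 108506 in the Cholistani library. The Cholistani value was 3.74 times the Holstein value and 3.55 times the Jersey value. Its listed position, chr16:48256078-48275857, was shared with a named model, A1L586_BOVIN, which had 354, 280.02 and 462 FPKM. XLOC_025903, a region of 209 bp at chr27:17913647-17913855, had 11531, 13348 and 68730 FPKM. It lay 35817 bp from FAT1, a cadherin-like gene with 2.87 and 1.55 FPKM in Holstein and Jersey and listed at 0 in Cholistani.

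XLOC_021752 was as abundant and nearly flat as deposited, with 22635 FPKM in the Holstein, 23729 in the Jersey and 24083 in the Cholistani library. After rescaling, its log2 fold of Cholistani was -0.59 over Holstein and -0.58 over Jersey. This region of 363 bp at chr9:16000746-16001108 lay 404088 bp from the nearest named model, IMPG1_BOVIN, which was at 0 in all libraries. XLOC_023863, at the listed position of TP53BP1, a DNA repair gene, had 18333, 18356 and 34720 FPKM, while TP53BP1 itself had 88.2, 100.1 and 79.7 FPKM. XLOC_022408 on the X chromosome had 14123, 15359 and 31405 FPKM and lay 1099 bp from LOC522938, which was at 0 in every library. In these examples the level of a member did not follow from that of the nearest named model.

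**Figure D1:**
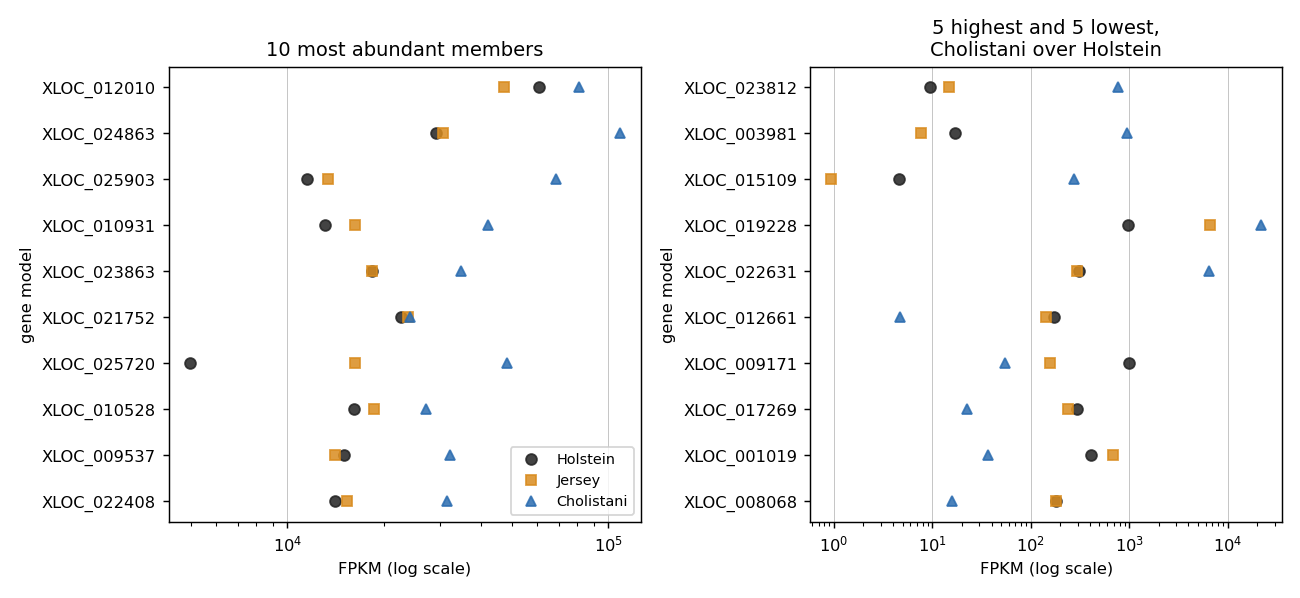
FPKM in each library, on a log axis, of the 10 members with the highest mean (left) and of the 5 highest and 5 lowest members in Cholistani over Holstein (right). Circles are Holstein, squares Jersey and triangles Cholistani, with 1 library per breed and so no error bar. On the left, Holstein and Jersey lie close together except at XLOC_025720, with 4983 and 16196 FPKM.

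The least abundant members were at the edge of the selection. XLOC_023564, which shared the position of INTS1 on chromosome 25, had 0.0050 FPKM in the Holstein, 0.0044 in the Jersey and 0.0027 in the Cholistani library. XLOC_021558 on chromosome 9 had 0.51, 0.65 and 0.30 FPKM, and XLOC_006250 on chromosome 7 had 0.32, 6.29 and 4.45 FPKM. Below 1 FPKM there were 4 members in Holstein, 4 in Jersey and 3 in Cholistani, so few members owed their place to values near 0.

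Outside the selection, some unnamed models were absent from 1 library despite high values in the others. XLOC_019543, at chr29:9464710-9464809, was listed at 0 in Jersey, against 465 FPKM in Holstein and 324 in Cholistani. XLOC_024317 had 329 FPKM in Holstein and 302 in Jersey, and XLOC_024315 had 504 and 278 FPKM. Both lie on chromosome 21 and were listed at 0 in Cholistani. These 3 models span 100 to 154 bp, shorter than most of the members.

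The levels of the members were more alike between the taurine libraries than between either of them and Cholistani. Over the 1709 members, Pearson's r of log2(FPKM + 1) was 0.964 for Jersey with Holstein, 0.893 for Cholistani with Holstein and 0.902 for Cholistani with Jersey. Over 10483 named models the same values were 0.981, 0.929 and 0.935. The models share their libraries and are not replicates, so these coefficients carry no p.

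Differences were counted where FPKM + 1 differed at least 2-fold. Between Cholistani and Holstein, 287 members were higher in Cholistani (16.8%) and 256 were lower (15.0%), and 1166 were within 2-fold. Over all models found in all 3 libraries, 13.6% were higher, 8.6% were lower and 22.2% differed either way. The members thus exceeded that background on both sides. Between Cholistani and Jersey, 269 members were higher and 257 were lower, against 11.5% and 7.63% of all models, 19.1% in all. Between Jersey and Holstein, 101 members were higher in Jersey and 60 were lower, against 2.33% and 1.39% of all models, 3.72% in all. In each pair the members differed by 2-fold more often than all models did, with 31.8%, 30.8% and 9.42% of them apart.

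These directions depend on how the libraries are scaled. The median log2 fold of the members was 0.05 for Cholistani over Holstein, 0.05 for Cholistani over Jersey and 0.00 for Jersey over Holstein, against 0.17, 0.15 and 0.01 over all models. Rescaling the FPKM of each library to the mean sum of the 3 libraries moved the median of all models to -0.49 for Cholistani over Holstein and to -0.44 for Cholistani over Jersey. The members' counts then became 115 higher and 569 lower against Holstein, and 103 and 519 against Jersey. Rescaling thus turned a near balance of both directions into mostly lower values in Cholistani. Of the members apart from Holstein, 52.9% were higher in Cholistani as deposited, 16.8% after rescaling and 39.0% with folds centred on the median of models with at least 10 FPKM in both libraries. The same shares over all models were 61.2%, 12.4% and 43.6%. Against Jersey the members' shares were 51.1%, 16.6% and 38.1%.

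**Figure D2:**
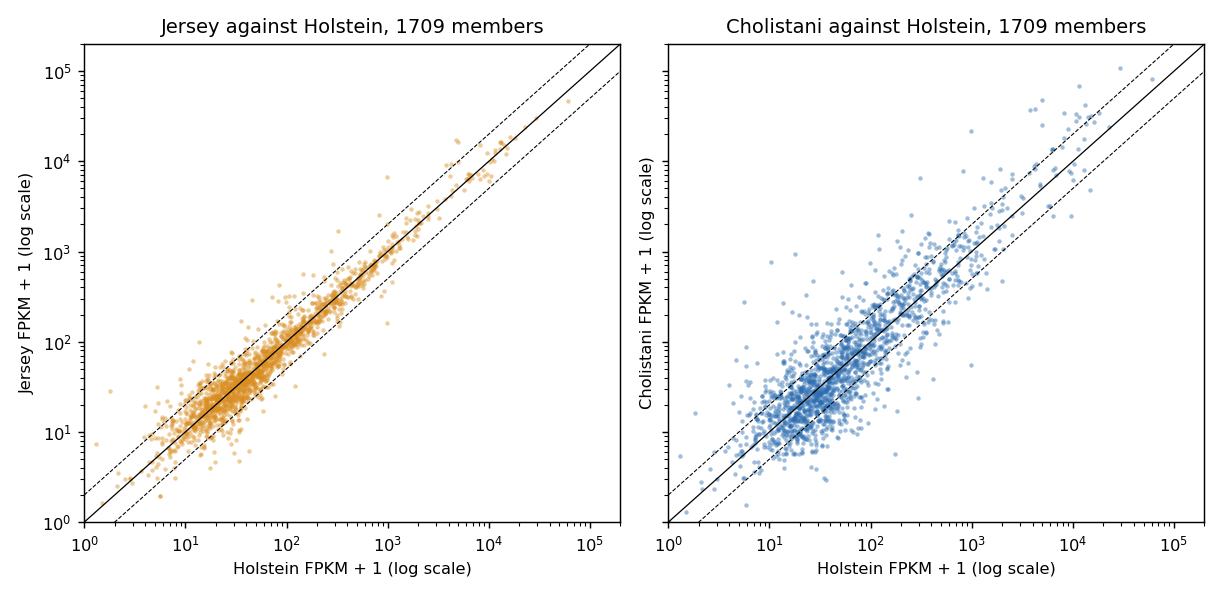
FPKM + 1 of the 1709 members in Jersey (left) and Cholistani (right) against Holstein, on log axes. Each point is 1 member, the solid line marks equal values and the dashed lines mark 2-fold. Outside the dashed lines lie 161 members on the left and 543 on the right.

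Many members set Cholistani apart from both taurine libraries. As deposited, 198 members (11.6%) were at least 2-fold above both in Cholistani and 185 (10.8%) were at least 2-fold below both. Over all models these shares were 8.88% and 5.59%. After rescaling to the mean sum they became 3.86% above and 24.7% below for the members, and 2.26% and 18.7% for all models. Within 2-fold in all 3 pairs were 986 members (57.7%), against 72.5% of all models. A difference of at least 10-fold between any pair of libraries was found for 27 members (1.58%), against 0.738% of all models.

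The members furthest above Holstein in Cholistani had levels from 0.945 to 6684 FPKM in the taurine libraries. XLOC_023812 had 9.47 FPKM in the Holstein, 14.8 in the Jersey and 771 in the Cholistani library. This was 81.4 times the Holstein value. Its position, chr21:34840219-34883436, was shared with a named model, LOC508858, which had 121, 142 and 7087 FPKM and so stood apart in the same library. The sharing of fragments between models at 1 position was not tested.

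XLOC_003981, a region of 394 bp at chr11:75633029-75633422, had 17.0, 7.71 and 943 FPKM. The nearest named model was KIF3C_BOVIN, a kinesin motor 42804 bp away, which had 25.2, 26.5 and 19.9 FPKM. XLOC_015109, at chr5:104706129-104706681, had 4.59, 0.945 and 273 FPKM and lay 74879 bp from Q1MW20_BOVIN, which had 6.54, 5.63 and 4.49 FPKM. In both cases the neighbour did not share the difference.

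XLOC_022631, at chrX:48484088-48485210, had 310 FPKM in the Holstein, 293 in the Jersey and 6552 in the Cholistani library, and CX049_BOVIN, 1127 bp away, was at 0 in every library. XLOC_019228, at the position of Q24K19_BOVIN on chromosome 29, had 984, 6684 and 21861 FPKM, so that Jersey also stood well above Holstein there. XLOC_018028, at chr17:55476610-55477049, had 25.7, 21.1 and 475 FPKM. Its neighbour LOC783718, 2174 bp away, had 9432, 8393 and 6191 FPKM. Each member of this group stayed above 2-fold between Cholistani and both taurine libraries after rescaling.

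The members furthest below Holstein in Cholistani were well expressed in both taurine libraries. XLOC_012661, at the listed position of A5PK04_BOVIN on chromosome 22, had 172 FPKM in the Holstein, 142 in the Jersey and 4.67 in the Cholistani library. The Cholistani value was 0.027 of the Holstein value, while A5PK04_BOVIN had 252, 262 and 423 FPKM. XLOC_017269, at chr19:22684054-22684787, had 296, 239 and 22.5 FPKM. MYO1C_BOVIN, an unconventional myosin 2657 bp away, had 285, 324 and 236 FPKM and thus varied much less.

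XLOC_001019, at chr2:21547767-21548204, had 409, 681 and 37.3 FPKM. XLOC_008068, at chr8:23246837-23248273, had 180.4, 182 and 16.0 FPKM. It lay 179317 bp from CDKN2A, an inhibitor of the cell cycle, which had 41.9, 55.7 and 127 FPKM and was thus highest in the library where the member was lowest. XLOC_009171, at chr24:38324910-38410455, differed among all 3 libraries, with 993 FPKM in the Holstein, 159 in the Jersey and 54.8 in the Cholistani library. Its neighbour Q3SYQ6_BOVIN, 1028 bp away, had 288, 309 and 246 FPKM.

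Jersey and Holstein were apart at fewer members. XLOC_015920, at a position of 8 models on chromosome 26, had 12.7 FPKM in the Holstein, 97.3 in the Jersey and 265 in the Cholistani library. XLOC_011026, at a position of 12 models on chromosome 10, had 10.8, 59.7 and 166 FPKM. XLOC_015231, at chr5:120045484-120050541, had 44.6, 292 and 232 FPKM, and lay 2270 bp from SREBF2, a regulator of cholesterol synthesis genes, with 725, 711 and 1194 FPKM. At all 3 members Holstein was the low library.

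The members furthest below Holstein in Jersey included XLOC_009171 and XLOC_007233. XLOC_007233, at chr4:117621425-117623157, had 120.01 FPKM in the Holstein, 31.1 in the Jersey and 106 in the Cholistani library. XLOC_007861 had 57.7, 15.9 and 14.3 FPKM, at a position of 11 models on chromosome 8. XLOC_015349, at chr5:79983838-79984473, had 75.3, 24.3 and 90.5 FPKM. At XLOC_007233 and XLOC_015349, Jersey alone was low.

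At the other extreme, some members hardly varied as deposited. XLOC_007520, at chr8:79092731-79093333, had 431 FPKM in the Holstein, 431 in the Jersey and 425 in the Cholistani library. XLOC_020704, on chromosome 3, had 442, 446 and 432 FPKM and lay 297465 bp from the nearest named model, bta-mir-2284m. XLOC_001881, at chr1:109171213-109212158, had 175, 181 and 178 FPKM. It lay 6623 bp from IL12A_BOVIN, a subunit of the cytokine interleukin 12, which was at 0 in all libraries.

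XLOC_025415, whose position chr14:11877869-11958123 holds 4 models, had 85.5, 88.8 and 88.7 FPKM and lay 193072 bp from MYC_BOVIN, the growth regulator MYC, with 664, 737 and 740.4 FPKM. XLOC_021663, on chromosome 9, had 205, 197 and 196 FPKM. These 5 members were picked for their small spread on the deposited scale. After rescaling, their log2 folds of Cholistani over Holstein lay between -0.74 and -0.62.

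As deposited, the share of members apart by 2-fold rose with abundance between Cholistani and Holstein but fell between Jersey and Holstein. By mean FPKM under 20, from 20 to 100, from 100 to 1000 and from 1000 upwards, 30.0%, 30.3%, 33.6% and 42.3% of the members differed between Cholistani and Holstein. The named models differed in 26.5%, 22.8%, 16.8% and 28.5% of cases. Between Jersey and Holstein, the members' shares were 15.0%, 8.48%, 6.99% and 6.73%, against 7.22%, 3.53%, 1.47% and 2.02% of the named models. In every class and both pairs the deposited share was larger for the members than for the named models. After rescaling, the members' share fell with abundance between Cholistani and Holstein as well. Higher and lower were then 13 and 153 of 374, 45 and 282 of 802, 41 and 114 of 429, and 16 and 20 of 104 members. The rise with abundance was thus seen on the deposited scale only.

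Among the 104 members with a mean of at least 1000 FPKM, 38 were higher and 6 were lower in Cholistani than in Holstein. Their median log2 fold of 0.67 became -0.01 after rescaling, with 16 higher and 20 lower. Among the 374 members under 20 FPKM, 44 were higher and 68 were lower, with a median of -0.21. After rescaling these were 13 and 153, with a median of -0.81. The abundant members stood above the scarce ones on both scales, but the classes were cut on a mean that includes the Cholistani value. A member high in Cholistani is thereby moved towards the abundant class, so the contrast is partly built in. Named models had the same order as deposited, with medians of -0.07 under 20 FPKM and 0.58 from 1000 FPKM upwards.

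**Figure D3:**
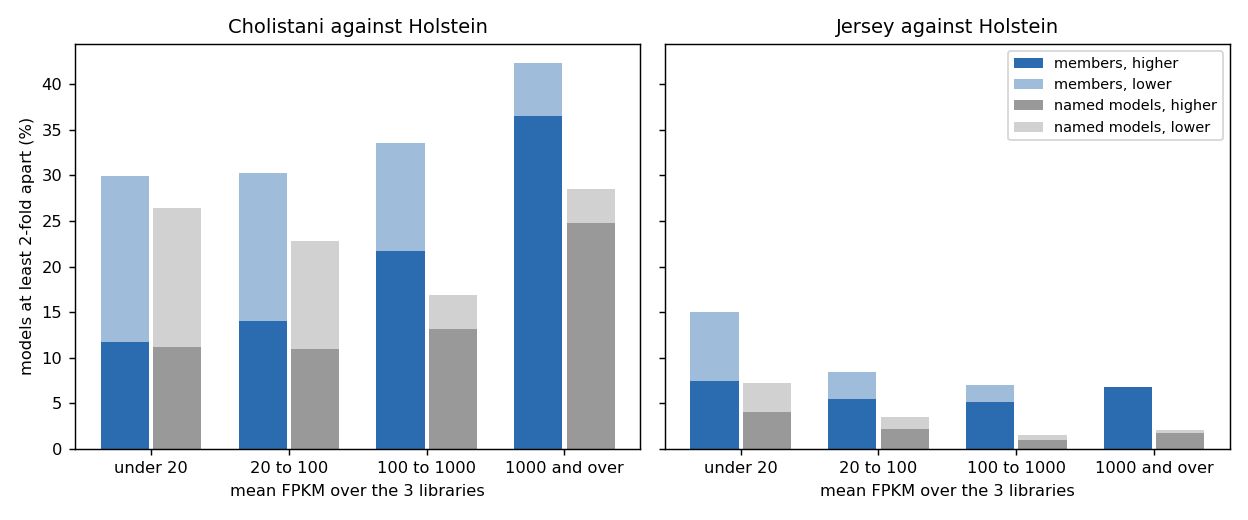
Percentage of models at least 2-fold apart in FPKM + 1, by their mean FPKM over the 3 libraries, for Cholistani against Holstein (left) and Jersey against Holstein (right). Bars are stacked, with models higher in the first-named library in the dark shade and lower ones in the light shade. Blue is the members and grey the named models found in all 3 libraries, and no bar has an error because each breed has 1 library.

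The listed spans of the members, introns included, were mostly short. The table lists 1 position per group of linked models, so a span is the model's own only where no other model has that position, as for 1434 members. Their median span was 1234 bp, from 78 bp upwards, and 41.6% were under 1 kb, against 3.14% of 7834 named models with a position of their own. Unnamed models of 2 libraries and of 1 library were shorter still, with medians of 905 and 694 bp.

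The level of the members changed with their span. Members under 300 bp had medians of 289 FPKM in the Holstein, 279 in the Jersey and 280 in the Cholistani library. From 300 to 500 bp the medians were 76.8, 80.6 and 112 FPKM, and from 1000 to 3000 bp they were 28.2, 28.4 and 23.3 FPKM. The shortest members thus had the highest FPKM. Above 10000 bp the medians were 51.3, 52.4 and 44.7 FPKM. FPKM divides by transcript length. The estimates for models as short as a fragment or shorter depend on how that length was corrected, which was not tested.

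The difference between Cholistani and Holstein also moved with span. Under 300 bp, 30 of 94 members were higher and 9 were lower in Cholistani, with a median log2 fold of 0.40. From 300 to 500 bp, 45 of 147 were higher and 7 were lower, with a median of 0.59. From 1000 to 3000 bp, 64 of 505 were higher and 93 were lower, with a median of -0.11, and above 10000 bp 14 of 170 were higher and 35 were lower, with a median of -0.17.

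Scaling turned the median of the short members from 0.51 to -0.16, while that of the long members was lower in Cholistani on both scales, at -0.14 and -0.79. The 241 members under 500 bp lay 0.34 above the median of all models as deposited and 0.33 above it after rescaling, on the log2 scale. The 838 members of at least 1000 bp lay at -0.30 relative to that median as deposited and at -0.30 after rescaling. After rescaling, the short members had 28 higher and 53 lower and the long ones 51 higher and 329 lower in Cholistani than in Holstein. Of all 12192 models, 444 were then higher and 3136 lower.

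The order by span was seen at both low and high levels. Below a mean of 100 FPKM, the median log2 fold of Cholistani over Holstein was 0.55 for members under 500 bp, 0.04 from 500 to 1000 bp and -0.24 for longer ones. From 100 FPKM upwards the medians were 0.50, 0.44 and 0.28. Between Jersey and Holstein no such order was seen, with medians between -0.06 and 0.06 in the 6 span classes. Named models too had higher medians in the short classes than in the longest, without a steady fall. For Cholistani over Holstein their medians were 0.52 under 300 bp (47 models), 1.22 from 300 to 500 bp (62 models) and 0.57 from 500 to 1000 bp. They were 0.34 from 1000 to 3000 bp, 0.50 from 3000 to 10000 bp and 0.03 from 10000 bp upwards (5517 models). For Jersey over Holstein the named models' medians were 0.90 under 300 bp, 0.25 from 300 to 500 bp and 0.11 from 500 to 1000 bp. In the 3 longer classes they were 0.06, 0.06 and -0.02.

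**Figure D4:**
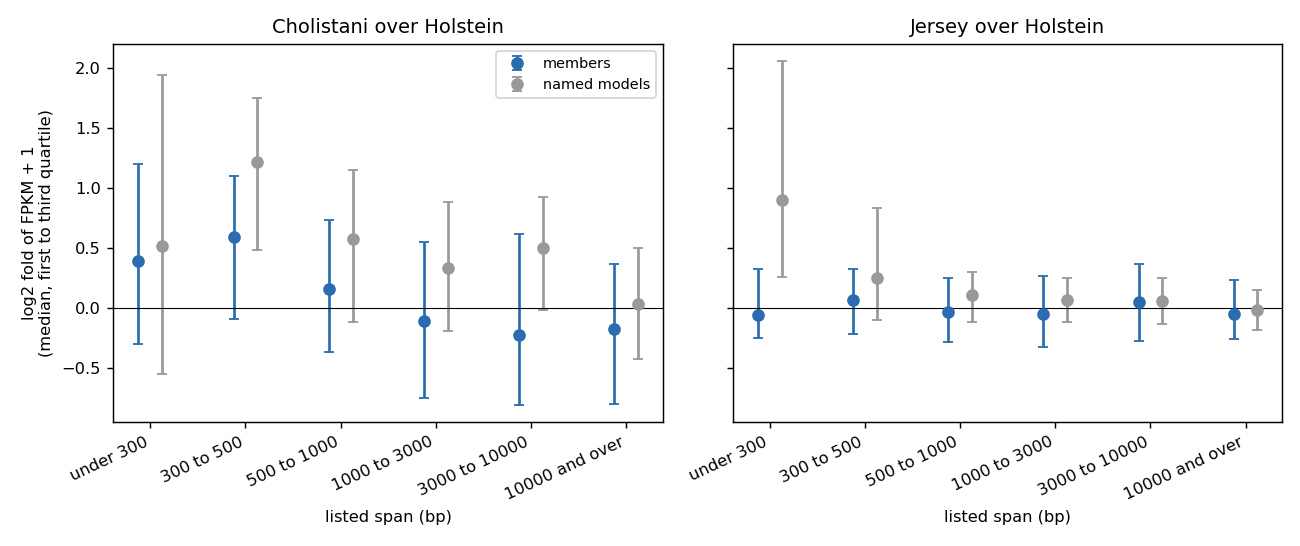
Median log2 fold of FPKM + 1, with bars from the first to the third quartile over models, by listed span, for Cholistani over Holstein (left) and Jersey over Holstein (right). Blue is the 1434 members and grey the 7834 named models with a listed position of their own. The members' medians fall from 0.40 and 0.59 in the shortest classes to -0.22 and -0.17 in the longest on the left, and lie near 0 on the right.

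The shortest members had some of the highest FPKM values. They are shorter than the fragments selected for sequencing, so these values depend on how length was corrected, which was not tested. XLOC_012042, of 78 bp at chr10:84307817-84307894, had 2519 FPKM in the Holstein, 3224 in the Jersey and 6324 in the Cholistani library. XLOC_024225, of 86 bp at chr21:52043050-52043135, had 3735, 9165 and 37204 FPKM. XLOC_024223, of 88 bp at chr21:52042333-52042420, had 8210, 15099 and 33973 FPKM. The last pair lie within 1 kb of each other and had the same order of libraries.

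XLOC_010048, of 88 bp on chromosome 18, had 4991, 9950 and 25167 FPKM. XLOC_013459, of 90 bp on chromosome 6, had 2057, 2741 and 1054 FPKM and was the only one of the 5 shortest that was lowest in Cholistani. Of the 19 members under 150 bp, 9 (47.4%) rose in the order Holstein, Jersey, Cholistani, against 394 (23.1%) of all members. From 150 to 300 bp, 18 of 75 members (24%) had that order. So did 47 of the 104 members (45.2%) with a mean of at least 1000 FPKM, so the order was not particular to short members. After rescaling, 7 of the 19 members under 150 bp and 169 of all members had that order. It was then found in 6 of the 75 and 24 of the 104.

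Some listed positions held several models. Of the 275 members that shared a position, 197 shared it with a named model and 78 only with other unnamed models. The 1709 members thus lay at 1632 positions. The 5 members with the longest listed positions lay at only a pair of them. XLOC_013962 and XLOC_013963, at a position of 8 models and 1170352 bp on chromosome 12, had 339 and 254 FPKM for Holstein, 443 and 236 for Jersey and 462 and 214 for Cholistani. XLOC_008796, at a position of 43 models on chromosome 13 that also holds the ribosomal protein gene RS21_BOVIN, had 224, 169 and 205 FPKM.

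The position with the most members, chr18:50327511-50534102, held 11 members among its 18 models, none of them named. XLOC_010786 had 325 FPKM in the Holstein, 1684 in the Jersey and 165 in the Cholistani library. XLOC_010795 had 273, 1004 and 248 FPKM, and XLOC_010792 had 70.4, 314 and 61.9 FPKM. Jersey was the highest library for each of these.

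At this position, 7 of the 11 members were at least 2-fold higher in Jersey than in Holstein and none was lower. Of all models, 2.33% were higher and 1.39% lower, and of members sharing a position 11.3% and 4.73%. After rescaling, 5 of the 11 were higher. Between Cholistani and Jersey, 1 of the 11 was higher and 8 were lower, against 11.5% and 7.63% of all models. After rescaling these were 1 and 10, against 417 and 2736 of all 12192 models. XLOC_010784 had another pattern, with 168, 168 and 663 FPKM. The models share a locus, so they are not independent of each other.

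The members lay in several settings relative to named genes. The listed position overlapped a named model for 197 members (11.5%). A further 80 (4.68%) lay within 1 kb of one, 674 (39.4%) from 1 to 10 kb, 410 (24.0%) from 10 to 50 kb and 348 (20.4%) farther away. The median distance was 7435 bp. Unnamed models found in 2 libraries or in 1 library had medians of 5306 and 7098 bp, whereas those at 0 in all libraries lay at a median of 14440 bp. Of the latter, 22.3% overlapped a named model and 26.6% lay more than 50 kb away, so unnamed models with expression were found from 1 to 10 kb of a named gene more often than silent ones, of which 18.1% lay there.

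**Figure D5:**
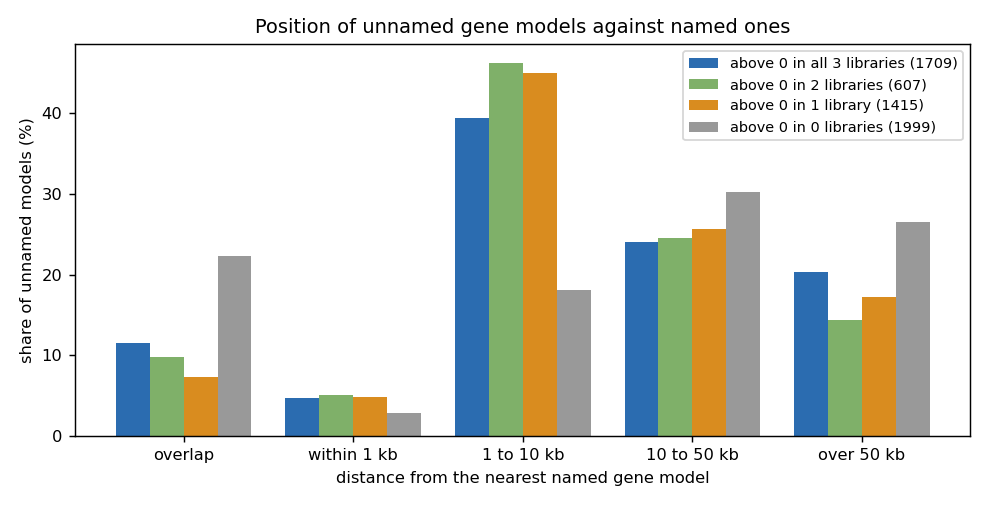
Share of unnamed models, in percent, by their distance from the nearest named model, for models above 0 in all 3 libraries (1709), in 2 (607), in 1 (1415) and in 0 (1999). The class from 1 to 10 kb holds 39.4% of the members and 18.1% of the models at 0.

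Members far from named genes were not weakly expressed. Those more than 50 kb away had medians of 64.1 FPKM in the Holstein, 65.3 in the Jersey and 70.6 in the Cholistani library. Those from 1 to 10 kb away had medians of 33.0, 33.0 and 29.1 FPKM. The median listed spans were 1096 bp in the first group and 1362 bp in the second.

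The member farthest from a named model, XLOC_022021 at chr9:1581100-1581475, lay 5428122 bp from LOC100139419 and had 171 FPKM in the Holstein, 194 in the Jersey and 246 in the Cholistani library. XLOC_009478, at chr24:17139043-17139384, had 162, 223 and 577 FPKM and lay 1485983 bp from a U6 small nuclear RNA model that was at 0. XLOC_002513, at chr1:13635956-13636270, had 33.9, 43.3 and 71.2 FPKM. XLOC_013097 and XLOC_013414, both on chromosome 6, had 35.3 and 17.0 FPKM for Holstein, 63.9 and 22.0 for Jersey and 49.0 and 99.4 for Cholistani. As deposited, Holstein was the lowest library at all 5, but XLOC_022021 and XLOC_013097 were lower in Cholistani after rescaling.

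The nearest named gene said little of a member's level or difference. Of the nearest named models, 1216 were above 0 in all 3 libraries, 402 were at 0 in all and 91 were above 0 in 1 or 2. Small noncoding RNA models were nearest for 137 members. At least 100 FPKM in every library was reached by 133 members whose nearest named model was at 0. Silent named genes thus lay beside well expressed members. Over the 1216 pairs, r of log2(FPKM + 1) between member and neighbour was 0.128 in Holstein, 0.154 in Jersey and 0.167 in Cholistani, and the member was the more abundant of the pair in 32.7%, 32.6% and 32.8% of pairs.

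The log2 folds of member and neighbour had an r of 0.192 for Cholistani over Holstein, 0.171 for Cholistani over Jersey and 0.185 for Jersey over Holstein. It was 0.319 for the 167 pairs that overlap and 0.151 for the 1049 that do not, between Cholistani and Holstein. Of 384 members of these pairs that differed 2-fold between Cholistani and Holstein, 64 had a neighbour that differed the same way, 24 had one that differed the opposite way and 296 had one within 2-fold. Of all these neighbours, 22.5% differed in that comparison. The pairs share their libraries, and a neighbour can serve several members, so these values are a description.

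Members next to each other were more alike. Among members with a position of their own, 154 adjacent pairs lay within 10 kb, and r of their log2 folds was 0.433 for Cholistani over Holstein, 0.409 for Cholistani over Jersey and 0.284 for Jersey over Holstein. For the 84 pairs within 1 kb these values were 0.48, 0.432 and 0.457, and r of their levels in Holstein was 0.855. Both members of 18 pairs within 10 kb differed 2-fold in the same direction between Cholistani and Holstein, and those of 1 pair in opposite directions. In 61 further pairs only 1 member differed 2-fold. Whether adjacent members are pieces of 1 transcript was not tested.

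Linked by gaps of at most 10 kb, 284 members formed 130 clusters, of which 21 held at least 3. The largest, at chr2:122480006-122507247, held 5 members. XLOC_000777, its longest, had 589 FPKM in the Holstein, 723 in the Jersey and 501 in the Cholistani library. XLOC_001523 had 421, 366 and 155 FPKM and XLOC_001525 had 289, 268 and 163 FPKM. All 5 were lowest in Cholistani. A cluster of 4 members at chr9:95136735-95317347, beyond RBM16, an RNA-binding protein gene, had values from 55.0 to 132 FPKM in Holstein, from 51.9 to 156 in Jersey and from 36.2 to 173 in Cholistani, with no common order.

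Immune genes were the nearest named models of 31 members. These were found with 9 families of gene names, chosen after values had been seen, from chemokines and interleukins to Toll-like receptors and lymphocyte transcription factors. At least 50 FPKM in any library was reached by 18 of the 31. Between Cholistani and Holstein, 9 were higher and 3 were lower as deposited, against 13.6% and 8.6% of all models. After rescaling, 6 were higher and 7 lower, against 444 and 3136 of all 12192 models. The balance of higher and lower members thus depended on the scale. On both scales the higher ones were a larger share of the 31 than of all models, and the lower ones a share near that of all models. Because the families were chosen after values had been seen, this is a description only.

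Near B cell genes, XLOC_008108, at the position of PAX5, the factor that keeps B cell identity, had 147 FPKM in the Holstein, 138 in the Jersey and 28.7 in the Cholistani library. PAX5 itself had 296, 381 and 145 FPKM, so both were lowest in Cholistani. XLOC_008109, 15624 bp from PAX5, had 7.80, 37.3 and 20.8 FPKM and did not follow that order. XLOC_006227, 9154 bp from EBF1, another B lineage factor, had 20.4, 28.2 and 11.8 FPKM, while EBF1 had 90.0, 99.7 and 127 FPKM.

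Near genes of T cells and natural killer cells, XLOC_015404 lay 127 bp from KLRD1_BOVIN, the CD94 receptor of natural killer cells. It had 25.5 FPKM in the Holstein, 32.1 in the Jersey and 112 in the Cholistani library, and KLRD1_BOVIN had 72.7, 62.2 and 164 FPKM. Both were highest in Cholistani. XLOC_024277, 7568 bp from BCL11B, a T lineage factor, had 39.9, 12.8 and 130.3 FPKM, against 90.3, 86.5 and 120.5 FPKM for BCL11B. XLOC_024475 lay 45417 bp from TNFSF4, the ligand of the costimulatory receptor OX40, and had 378, 452 and 1565 FPKM, although TNFSF4 was at 0 in every library.

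At cytokine and chemokine genes, XLOC_016623 shared the position of CCL4_BOVIN, a chemokine for T cells and monocytes. It had 234 FPKM in the Holstein, 72.1 in the Jersey and 347 in the Cholistani library, against 85.3, 54.5 and 1811 FPKM for CCL4_BOVIN. XLOC_016625, at the same position, had 56.0, 78.7 and 80.3 FPKM. The first member and the gene were lowest in Jersey, but the second member was not. XLOC_003728, 10016 bp from the interleukin 1 receptor gene IL1R1, had 93.6, 56.3 and 32.3 FPKM, and IL1R1 had 137, 100.3 and 70.1 FPKM. XLOC_005778, 42293 bp from IL13_BOVIN, had 111, 118 and 243 FPKM beside a gene at 0 in all libraries.

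Among members near surface antigens, XLOC_002532, 40699 bp from CD47, which restrains phagocytosis, had 15.7 FPKM in the Holstein, 37.2 in the Jersey and 215 in the Cholistani library. CD47 had 1064, 923 and 615 FPKM. XLOC_020374, 92645 bp from CD1D, which presents lipids to T cells, had 1210 FPKM in the Holstein, 1013 in the Jersey and 437 in the Cholistani library. CD1D had 107, 76.1 and 94.9 FPKM. In neither case did member and gene have the same order of libraries. XLOC_001496, 7606 bp from CD28_BOVIN, did share the order of its gene as deposited. Both were highest in Cholistani and lowest in Jersey. The member's log2 fold of Cholistani over Holstein was 0.77, against 0.73 for CD28_BOVIN. Over Jersey these folds were 1.04 and 1.20. No other of the 9 members beside CD antigens had the order of its gene.

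Within the MHC class I region, XLOC_018649 had 3105 FPKM in the Holstein, 3646 in the Jersey and 2658 in the Cholistani library. The named model at its position, a merger of HA1B_BOVIN and 3 other names, had 84948, 77462 and 328475 FPKM. XLOC_025720, of 95 bp at chr27:7418699-7418793, lay 8348 bp from LAP_BOVIN, lingual antimicrobial peptide. It had 4983, 16196 and 48394 FPKM, whereas LAP_BOVIN had 36.6 and 26.1 FPKM and was listed at 0 in Cholistani. The values of so short a member also depend on how length was corrected.

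Some members lay between genes that a later annotation places around a further gene. For 126 of the 1434 members with a position of their own, both flanking named genes were found in RefSeq genes of the ARS-UCD2.0 assembly on the same chromosome, with a gap within 2-fold of that in btau4.0. RefSeq lists no gene in the gap for 31 of them (24.6%) and at least 1 for 95 (75.4%). A long noncoding RNA gene lies in the gap of 43, a protein-coding gene in that of 44 and a pseudogene in that of 47, with some gaps holding more than 1 kind. The 2 assemblies were compared by the order of genes only, so a gene in the gap is not shown to be the member. Some gaps hold many genes, with 16 in that of XLOC_008073. The same shares were not computed for gaps without members, so they are not a trait of the members.

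Exactly 1 RefSeq gene lies in the gap of 42 members. It is a pseudogene for 14, protein-coding for 10 and a long noncoding RNA for 9. XLOC_020367, between OR10K2 and OR10R2, with 5658 FPKM in the Holstein, 4791 in the Jersey and 3174 in the Cholistani library, has the pseudogene LOC511264 in its gap. XLOC_023603, between CIITA and CLEC16A, with 122, 227 and 179 FPKM, has DEXI, and XLOC_012717, between GP9 and ISY1, with 366, 481 and 163 FPKM, has RAB43.

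XLOC_021316 and XLOC_021163, both between ARID5B and RTKN2 on chromosome 28, have LOC100139549, listed as protein-coding, in the gap. They had 204 and 134 FPKM for Holstein, 190.2 and 142 for Jersey and 801 and 539 for Cholistani, so that both were highest there. Among the long noncoding cases, XLOC_019570, between SYT7 and DAGLA, with 226, 134 and 75.9 FPKM, has LOC112444860. XLOC_001498, XLOC_001499 and XLOC_001500 lie side by side between NRP2 and INO80D, where RefSeq lists LOC132343212, and had 59.6, 58.8 and 31.3 FPKM for Holstein, 56.1, 39.6 and 36.0 for Jersey and 65.5, 34.3 and 17.3 for Cholistani.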

How the data were processed

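Poly(A)+ RNA of pooled leukocytes was sequenced as 1 library per breed. The authors aligned reads to btau4.0 with TopHat 1.0.14 and Bowtie 0.12.7, discarding reads with more than 20 locations, and assembled transcripts with Cufflinks 0.9.3, merged with Ensembl release 60. The deposited gene values are FPKM, scaled by the upper quartile and bias-corrected by the authors, and no further scaling was applied. Fragment counts and exon lengths per model were not used here, so the depth behind each value is unknown.

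The members and lists were chosen with earlier results of these data known, and the immune families, adjacent pairs, clusters and RefSeq flanks after values were seen. Listed starts were increased by 1. The nearest named model is the closest on the chromosome, ties going to the highest mean FPKM. Folds are log2 of FPKM + 1, which understates differences at low levels, and ratios are of FPKM. The 3 unnamed models with a missing value were not members. No test was made, since each breed has 1 library. Calculations used Python 3.11.15, pandas 2.3.3 and numpy 2.4.6, and counting and neighbour search were tested on simulated data.

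Named by rule were the 10 members with the highest mean, the 5 highest and 5 lowest folds per pair (at least 50 FPKM in 1 of the pair), the 5 least varying with at least 50 FPKM in each library, the 5 longest, 5 shortest and 5 farthest, the 3 with the lowest minimum and the 3 unnamed models just outside. Members beside immune genes, in clusters, at the position with most members or with RefSeq genes in the gap were named after their values were seen. RefSeq was used for names and gene order only. The alternatives were other pseudocounts, detection limits, scalings, distances and neighbour sets.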

Additional observations from a re-analysis of the deposited data

How the results depend on the processing

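Each breed has 1 library, so no library could be left out. No paired analysis was possible because no group has more than 1 sample. A limit of 10 FPKM in every library left 41.1% of detected unnamed models shared by all libraries, with medians of 57.8, 57.9 and 61.4 FPKM for Holstein, Jersey and Cholistani. With a pseudocount of 10, the lower members numbered 151 for Cholistani over Holstein, 148 for Cholistani over Jersey and 24 for Jersey over Holstein, and the higher members of the last pair 47. Rescaling to the mean sum gave 115 higher and 569 lower members with a median log2 fold of -0.60 for Cholistani over Holstein, 103 and 519 with -0.53 for Cholistani over Jersey, and a median of -0.075 for Jersey over Holstein. Centring gave medians of -0.15 and -0.12 for Cholistani over Holstein and over Jersey. Of the 838 members with a position of their own of at least 1 kb, a choice made after seeing the data, 104 were higher and 156 lower for Cholistani over Holstein (median -0.14), 105 and 144 for Cholistani over Jersey (-0.10) and 44 and 28 for Jersey over Holstein (-0.034). With near defined as 1 kb, 80 members were near and 1432 farther, and with 50 kb 1164 and 348. The other 107 alternatives for these results moved counts by at most 1.5 times, correlations by at most 0.1, and medians and shares within their 95% intervals. Each log2 fold of a member named by rule was compared under several alternatives, so 1 fold counts more than once. In 752 of these comparisons the fold kept its side of 2-fold, in 23 it fell below 2-fold and in 5 it rose to 2-fold. No fold that differed 2-fold changed direction. The absent replicates and the unknown fragment counts limit every value here.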

Other observations

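The mitochondrial genome was left out of the selection. It held 24 unnamed models, of which 22 were at 0 in all 3 libraries. The model XLOC_026011, at positions 431 to 1385, had 9195, 8615 and 6379 FPKM in the Holstein, Jersey and Cholistani libraries. XLOC_026013, at positions 1453 to 3023, had 9819, 12919 and 5545 FPKM. Both were lowest in Cholistani as deposited.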
